A study of Homo sapiens with 16 samples.

Results

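The genes described here are 6 markers of the absorptive colonocyte (KRT20, FABP1, VIL1, CDH17, CDHR5 and LGALS4) and 4 members of the carcinoembryonic antigen family (CEACAM1, CEACAM5, CEACAM6 and CEACAM7). They were matched by symbol to Ensembl identifiers, and all 10 were found among the 54127 identifiers counted in each library. RNA sequencing covered HT55 and SW948, which are established human colorectal cancer cell lines, each 1 line grown in adherent culture with foetal bovine serum and antibiotics. Each line received itraconazole at 5 µM, an azole antifungal drug, or its solvent DMSO, and RNA was taken on day 6. There were 4 libraries in each of the 4 groups, named HT55 DMSO, HT55 itraconazole, SW948 DMSO and SW948 itraconazole. The methods speak of biological quadruplicates, but the labels do not say that replicates came from separate cultures, so p-values measure only the spread between these libraries, which may be technical.

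The colonic crypt renews from stem cells at its base. Daughter cells that become absorptive colonocytes build an apical brush border of microvilli, switch keratins and turn on transporters and fatty acid binding proteins as they move to the surface. The carcinoembryonic antigen family is a group of immunoglobulin-like adhesion proteins of the apical membrane, several of which are strongest in the mature surface cells and are often high in colorectal cancer.

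Gene counts ran from 8269406 to 11110814 per library. Levels are given as CPM, the count per 1000000 gene counts after TMM scaling, and as RPKM, the CPM divided by the length in kilobases of all annotated exons of a gene merged. The epithelial markers EPCAM, CDH1, KRT8, KRT18 and CLDN7 summed to between 4611.5 and 8169 CPM in all 16 libraries. Of these 5, edgeR called 2 higher with itraconazole in HT55, namely CDH1 at 0.55 and EPCAM at 0.51 on the log2 scale. In SW948 it called 3 higher and 2 lower, so the sum hides opposite moves. KRT8 stood there at 1.03, KRT18 at 0.72 and CLDN7 at -0.82. Among all genes tested, edgeR called 27.5% higher and 26.5% lower in HT55, and 38.9% higher and 41.3% lower in SW948. Of 8 markers of immune, stromal or muscle cells found in the files, 3 or 4 had no count in a group. Their summed level was 28.0 to 34.1 CPM in HT55 DMSO, 22.3 to 63.0 CPM in HT55 itraconazole, 19.2 to 25.9 CPM in SW948 DMSO and 118 to 123 CPM in SW948 itraconazole, and CD68, a lysosomal protein of macrophages, made up most of it. CD3E and COL3A1 were at 0 in every library, PTPRC had 1 count in all and VIM at most 4 in a library. COL1A2 had at most 2 counts in a library and DES at most 12. In SW948 CD68 went from 20.5 ± 3.65 CPM with DMSO to 110 ± 1.48 CPM with itraconazole (log2 fold change 2.39 ± 0.11, edgeR adjusted p = 2.02e-10). COL1A1, a collagen, went there from 3.16 ± 0.81 to 10.1 ± 1.03 CPM (1.65 ± 0.18, edgeR adjusted p = 9.01e-07). The treated libraries of HT55 differed among themselves: replicate 3 lay nearest to DMSO on the second principal component of all genes (-14.0, against -36.4, -49.7 and -38.4 for replicates 1, 2 and 4, and 17.1 to 17.8 with DMSO). In bulk RNA, fewer cells of a type and less RNA per cell cannot be told apart.

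The CEACAM genes lie in a cluster on chromosome 19 and resemble each other closely, which bears on how well 50-base reads can be assigned. The longest run of coding sequence that was identical in CEACAM5 and CEACAM6 was 65 bases. A 60-base window of it (GRCh37, the reference release of hg19) is shown 5′ to 3′ in the sense of each gene, beside the closest coding window of 3 relatives, and capitals mark bases that differ from CEACAM5. The windows are chr19:42219619-42219678 on the plus strand for CEACAM5, chr19:42265927-42265986 on the plus strand for CEACAM6, chr19:43025564-43025623 on the minus strand for CEACAM1, chr19:43093081-43093140 on the minus strand for CEACAM8 and chr19:42190861-42190920 on the minus strand for CEACAM7.
CEACAM5: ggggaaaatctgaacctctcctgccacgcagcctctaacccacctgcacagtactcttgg
CEACAM6: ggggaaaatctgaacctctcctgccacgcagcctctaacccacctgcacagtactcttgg
CEACAM1: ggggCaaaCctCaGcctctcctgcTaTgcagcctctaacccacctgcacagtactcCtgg
CEACAM8: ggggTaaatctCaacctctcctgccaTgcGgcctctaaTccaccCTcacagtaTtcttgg
CEACAM7: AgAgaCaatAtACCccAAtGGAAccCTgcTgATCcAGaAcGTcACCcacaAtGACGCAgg
CEACAM6 differed from CEACAM5 at 0 of the 60 bases, CEACAM1 at 7, CEACAM8 at 8 and CEACAM7 at 34, so CEACAM7 had no close counterpart of this stretch. Reads with more than 1 alignment were set apart and entered no gene, so such stretches lose reads. Over all 50-base windows within single exons, 9.08% of CEACAM5 windows, 5.06% of CEACAM1 windows and 4.21% of CEACAM6 windows recurred exactly elsewhere in the genome, against 0% for CEACAM7. With up to 2 mismatches allowed the shares were 33.9% for CEACAM5, 19.5% for CEACAM6, 16.7% for CEACAM1 and 5.05% for CEACAM7. CEACAM6 held a match for 14.2% of CEACAM5 windows, and CEACAM5 held one for 15.2% of CEACAM6 windows. Of CEACAM5 windows, 8.69% had such a match within CEACAM5 itself and 11.2% outside the CEACAM genes and the PSG genes of chromosome 19. The shares outside them were 7.47% for CEACAM1 and 0.16% for CEACAM6, and a window can match in more than 1 place. A read that differs by 1 or 2 bases may still have 1 best alignment. The levels of CEACAM5, CEACAM6 and CEACAM1 are therefore uncertain, but these shares do not measure by how much. KRT20 and FABP1 had no recurring window. Among the other absorptive markers, with up to 2 mismatches, 9.51% of LGALS4 windows, 8.55% of CDHR5 windows, 7.21% of CDH17 windows and 1.33% of VIL1 windows recurred, so LGALS4, CDHR5 and CDH17 recurred more than CEACAM7.

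The promoters are shown because CEACAM1, CEACAM5 and CEACAM6 were called higher with the drug in both lines. KRT20 and LGALS4 were called higher in both lines too, and CEACAM7 only in HT55. Promoter windows from RefSeq (GRCh38.p14) were at hand for 7 of the 10 genes, and the 250 bases before each start were searched on both strands for 4 motifs. The LGALS4 window was searched but is not printed. The E-box was searched as CACGTG and the GC box as GGGCGG. The core of a site for CDX factors was searched as CATAAA. The TATA box was searched as TATAAA. Capitals mark the matches. The windows are chr19:41708376-41708625 (plus strand) for CEACAM5, chr19:41755280-41755529 (plus strand) for CEACAM6, chr19:41688271-41688520 (minus strand) for CEACAM7, chr19:42528482-42528731 (minus strand) for CEACAM1, chr17:40885243-40885492 (minus strand) for KRT20 and chr2:88128063-88128312 (minus strand) for FABP1.
CEACAM5: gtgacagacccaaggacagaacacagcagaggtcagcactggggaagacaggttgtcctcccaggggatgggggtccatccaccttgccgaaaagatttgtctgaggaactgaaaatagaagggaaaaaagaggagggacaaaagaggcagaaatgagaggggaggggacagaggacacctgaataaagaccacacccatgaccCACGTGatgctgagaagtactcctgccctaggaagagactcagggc
CEACAM6: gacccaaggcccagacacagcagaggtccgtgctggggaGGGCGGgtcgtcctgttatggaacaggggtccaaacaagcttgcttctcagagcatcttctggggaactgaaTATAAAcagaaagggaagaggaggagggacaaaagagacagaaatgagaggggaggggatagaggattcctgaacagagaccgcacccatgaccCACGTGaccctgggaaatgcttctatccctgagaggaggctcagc
CEACAM7: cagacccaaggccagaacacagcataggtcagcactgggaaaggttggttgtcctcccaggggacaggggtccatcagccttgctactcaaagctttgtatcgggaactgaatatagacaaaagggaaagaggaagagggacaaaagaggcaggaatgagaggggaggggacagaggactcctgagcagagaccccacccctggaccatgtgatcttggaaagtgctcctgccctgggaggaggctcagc
CEACAM1: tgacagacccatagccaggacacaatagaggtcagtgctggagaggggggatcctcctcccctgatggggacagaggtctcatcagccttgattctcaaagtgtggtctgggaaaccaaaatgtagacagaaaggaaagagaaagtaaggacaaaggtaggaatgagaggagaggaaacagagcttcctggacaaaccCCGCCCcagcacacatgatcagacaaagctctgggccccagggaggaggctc
KRT20: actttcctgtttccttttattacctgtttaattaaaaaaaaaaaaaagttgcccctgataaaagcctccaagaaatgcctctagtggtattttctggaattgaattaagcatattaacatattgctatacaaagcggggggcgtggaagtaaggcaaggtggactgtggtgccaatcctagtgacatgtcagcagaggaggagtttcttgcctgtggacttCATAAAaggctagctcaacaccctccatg
FABP1: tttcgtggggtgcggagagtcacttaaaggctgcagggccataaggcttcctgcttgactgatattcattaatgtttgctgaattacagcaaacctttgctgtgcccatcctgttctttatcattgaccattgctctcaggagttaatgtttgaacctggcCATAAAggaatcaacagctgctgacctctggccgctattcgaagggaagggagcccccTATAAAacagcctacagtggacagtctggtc
The 4 CEACAM windows were alike, with identity over the alignment from 62.7% between CEACAM1 and CEACAM5 to 80.5% between CEACAM5 and CEACAM7. Pairs that held KRT20, FABP1 or LGALS4 had 37.6% to 45.7% in the same kind of alignment. The E-box was found in CEACAM5, 46 bases before the start, and in CEACAM6, 45 bases before it, and in 6.3% of all 35116 promoter windows of this length. The GC box was found in CEACAM6 and CEACAM1 and in 42.6% of all windows. KRT20 and FABP1 each held the CDX core, found in 9.6% of all windows. FABP1 and CEACAM6 held the TATA sequence, found in 10.7% of windows, and LGALS4 and CEACAM7 held none of the 4 exact sequences searched. Other forms of these motifs were not searched, so their absence is not shown. The motifs do not overlap each other in these windows, and a match is a description of the letters only.

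Ranked per length in RPKM over merged exons, the order of the 10 genes differed between the lines. In HT55 DMSO, CEACAM5 was highest at 327 ± 8.20 RPKM (SD, n = 4), followed by CDH17 at 279 ± 3.99, LGALS4 at 199.7 ± 6.38, VIL1 at 124.9 ± 3.18 and KRT20 at 96.3 ± 3.51 RPKM. CEACAM6, CEACAM1, FABP1, CDHR5 and CEACAM7 came next, from 44.7 ± 0.43 down to 0.61 ± 0.065 RPKM, and only FABP1 and CDHR5 among neighbours overlapped in their ranges. In SW948 DMSO, KRT20 was highest at 345 ± 9.26 RPKM, LGALS4 stood at 246 ± 9.22, CDH17 at 227 ± 3.98 and CEACAM5 at 82.3 ± 3.67 RPKM. CEACAM5 overlapped with VIL1 next to it, and FABP1 overlapped with CEACAM7 at the bottom of the order. With the longest transcript as the length, the top of the order turned in SW948 DMSO, with LGALS4 at 407 ± 15.3 and KRT20 at 366 ± 9.81 RPKM, and in HT55 DMSO LGALS4, at 331 ± 10.6, passed CDH17 at 295 ± 4.22 RPKM. LGALS4 levels were then 1.66 times and CEACAM1 levels 1.58 times those over merged exons. CEACAM7 was the lowest or next to lowest in every group, with 10 to 89 counts in a library.

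In HT55 itraconazole, CEACAM5 stayed at the top, at 789.8 ± 295 RPKM, ahead of CDH17 at 419 ± 16.3 RPKM. The ranges of LGALS4, KRT20 and VIL1 overlapped from neighbour to neighbour, as did those of CEACAM1 at 68.9 ± 15.2 and CEACAM6 at 68.2 ± 26.7 RPKM. In SW948 itraconazole, KRT20 was highest at 457 ± 42.4 RPKM over merged exons, followed by LGALS4 at 358 ± 25.0, and CEACAM5 moved up to the third place at 284 ± 62.9 RPKM, overlapping with LGALS4. CEACAM6, CEACAM1 and VIL1 could not be ordered there, at 55.0 ± 27.5, 50.1 ± 5.72 and 46.2 ± 2.90 RPKM. With the longest transcript, LGALS4 led there at 593 ± 41.3 RPKM ahead of KRT20 at 484 ± 45.0, and CEACAM1 stood at 79.3 ± 9.06 beside CEACAM6 at 62.6 ± 31.3 RPKM. The 10 genes together held 4217.8 ± 33.5 CPM in HT55 DMSO, 7411 ± 1609.5 CPM in HT55 itraconazole, 3125 ± 21.1 CPM in SW948 DMSO and 4147 ± 336 CPM in SW948 itraconazole.

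**Figure D1:**
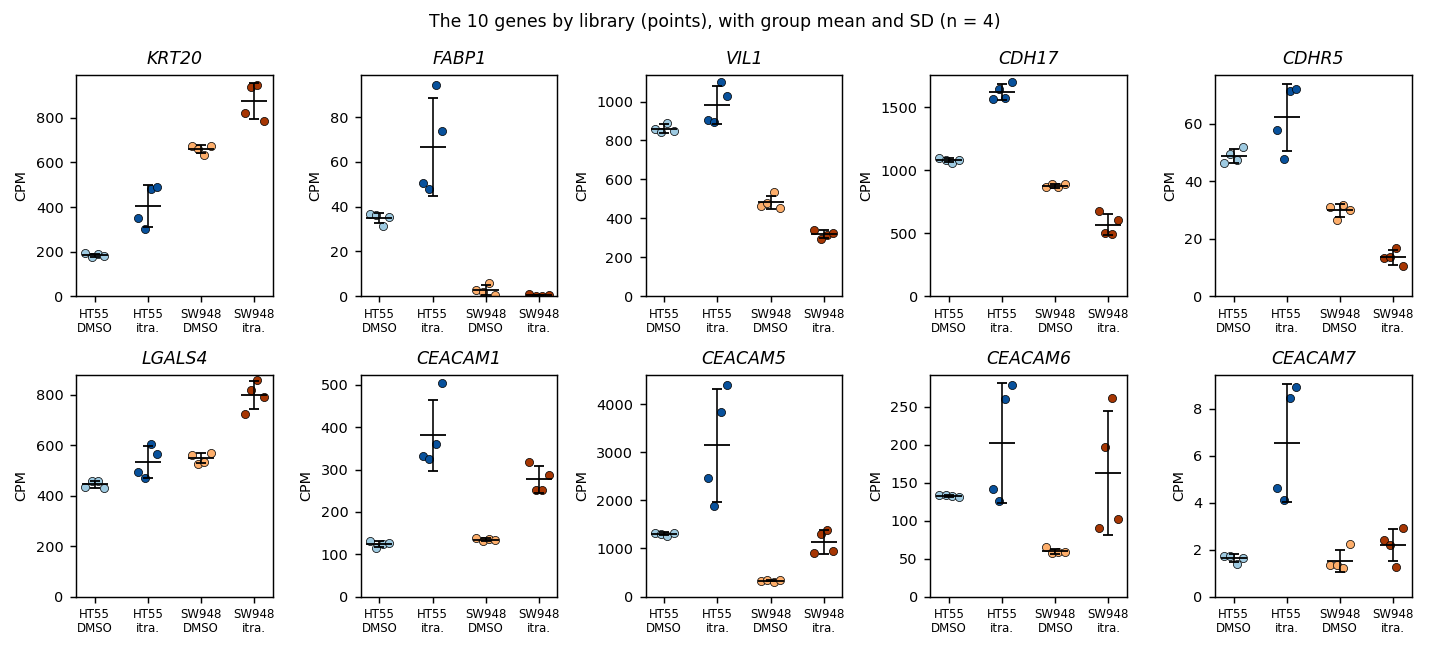
The level of each of the 10 genes in CPM (vertical axes, each from 0) in every library of the 4 groups, with the group mean and SD (n = 4). The DMSO libraries of a line lie close together for most genes, the treated ones spread widely for CEACAM5, CEACAM6 and CEACAM7, and CEACAM6 in HT55 itraconazole runs from 126 to 279 CPM.

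To ask how itraconazole changed these genes, treated and DMSO libraries were compared within each line. In HT55, 9 of the 10 genes were higher with the drug (edgeR adjusted p under 0.05), where 27.5% of all 12133 genes tested were called higher and 26.5% lower. Without HT55 itraconazole replicate 3 the calls were 9 of the 10 genes and 7911 of all genes, and without replicate 4 they were 6 of the 10 genes and 5739 of all genes, against 6553 in all 8 libraries. In SW948, 5 of the 9 genes tested were higher and 3 were lower, where 38.9% of 12505 genes tested were called higher and 41.3% lower. The treated and DMSO libraries did not overlap in CPM for 8 of the 10 genes in HT55, against 49.4% of all genes tested there. They did not overlap for 8 of the 9 tested in SW948, against 74.7% of all genes. For the 6 absorptive markers the median log2 fold change in HT55 was 0.47, and for the 5 tested in SW948 -0.63, beside -0.02 over all genes of each line. For the 4 CEACAM genes it reached 1.44 with HT55 and 1.21 with SW948. Scaling by plain library totals in place of TMM lowered the median of all genes by 0.17 in HT55 and 0.33 in SW948, so every change here is relative to the TMM scale.

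**Figure D2:**
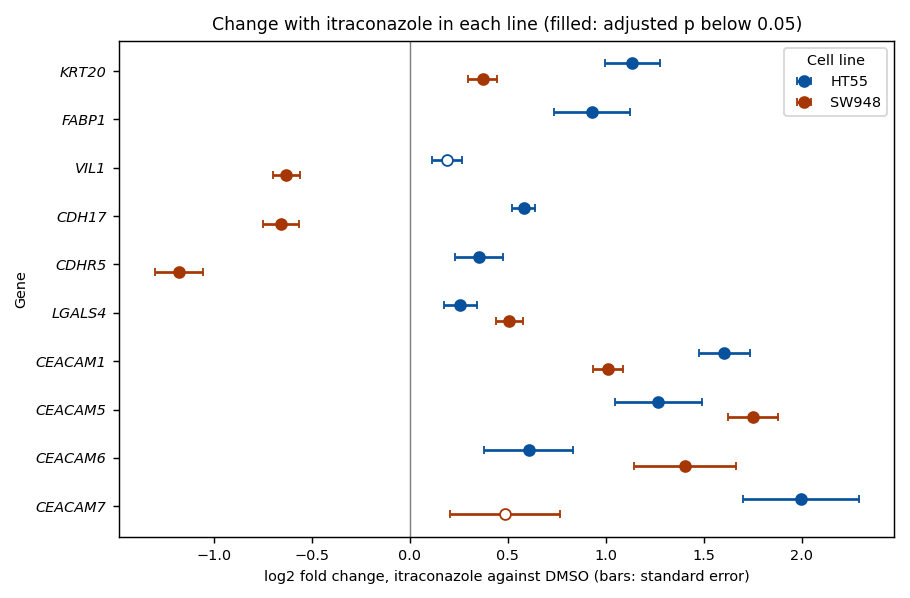
The log2 fold change of itraconazole against DMSO (horizontal axis) for each gene in HT55 and SW948, with its standard error, and filled points where the adjusted p was below 0.05. The CEACAM genes and KRT20 and LGALS4 lie to the right of 0 in both lines, while CDH17, VIL1 and CDHR5 lie on opposite sides of it, and FABP1 has no SW948 point because it was below the filter on low counts.

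Among the structural markers, KRT20 (chr17:39032141-39041494, minus strand, ENSG00000171431) encodes keratin 20, an intermediate filament protein of the mature surface epithelium. Its level in HT55 was 192, 178, 188 and 179 CPM with DMSO and 352, 302, 480 and 488 CPM with itraconazole. In SW948 it was 672, 662, 634 and 672 CPM with DMSO and 822, 939, 948 and 787 CPM with itraconazole. Every treated library was above every DMSO library of its line, and replicates 3 and 4 of HT55 itraconazole were the highest of that line. On the TMM scale KRT20 rose by 1.13 ± 0.14 (SE) on the log2 scale in HT55 (edgeR adjusted p = 0.000112) and by 0.37 ± 0.075 in SW948 (adjusted p = 0.000373). The SW948 value depended on the scaling, since it was 0.04 on plain library totals (adjusted p = 0.546). Against KRT8, a keratin of all simple epithelia, in the same library, KRT20 moved in opposite ways. The log2 ratio of their counts went from -3.87 ± 0.060 to -2.87 ± 0.33 in HT55 and from -0.97 ± 0.094 to -1.60 ± 0.24 in SW948 (n = 4, SD). The two-sided exact permutation test gave p = 0.0286 for each, the smallest that 4 against 4 allows (adjusted p = 0.0457 over 8 ratios). In SW948 KRT8 itself rose, from 1297 ± 64.1 to 2701 ± 629 CPM.

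VIL1 (chr2:219283844-219318018, plus strand, ENSG00000127831) encodes villin, which bundles the actin core of microvilli. HT55 libraries held 859.9, 842, 891 and 848 CPM with DMSO and 907, 896, 1098.5 and 1031 CPM with itraconazole. SW948 libraries held 463, 476, 533 and 455 CPM with DMSO and 339, 292, 314 and 326 CPM with itraconazole. All HT55 treated libraries were slightly above the DMSO ones, and all SW948 treated libraries were clearly below theirs. In SW948 VIL1 fell by 0.63 ± 0.070 (log2 scale, edgeR adjusted p = 1.27e-06), and its value in HT55 was 0.19 ± 0.078 (adjusted p = 0.0628). The HT55 value passed without replicate 1 or without replicate 2 of HT55 itraconazole (adjusted p = 0.0424 and 0.0249), with DESeq2 (0.0280) and in 1 fit on all 16 libraries (0.0398). Of the VIL1 exons, 3045 bases (44.2%) are shared with exons of USP37 on the opposite strand, and the sources do not say whether counting used the strand, so VIL1 levels are uncertain.

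CDHR5 (chr11:616577-626078, minus strand, ENSG00000099834) encodes a protocadherin that links the tips of neighbouring microvilli. The HT55 levels were 46.3, 49.3, 47.3 and 51.9 CPM with DMSO and 57.9, 47.6, 71.5 and 72.0 CPM with itraconazole. The SW948 levels were 31.2, 26.4, 31.7 and 30.1 CPM with DMSO and 13.2, 13.5, 16.9 and 10.5 CPM with itraconazole. The HT55 groups overlapped through replicate 2 of the treated libraries, and the SW948 groups did not. In SW948 CDHR5 fell by 1.18 ± 0.12 (log2 scale, edgeR adjusted p = 8.23e-07) and was higher by 0.35 ± 0.12 in HT55 (adjusted p = 0.0326). The HT55 call was lost on plain library totals (0.19, adjusted p = 0.266), without HT55 DMSO replicate 1 (0.34, 0.0738), 2 (0.37, 0.0600) or 3 (0.35, 0.0705) and without HT55 itraconazole replicate 4 (0.28, 0.0977). Within a library, the log2 ratio of CDHR5 to VIL1 counts fell by 0.56 in SW948, from -4.01 ± 0.13 to -4.57 ± 0.32 (exact permutation p = 0.0286, adjusted p = 0.0457). In HT55 the ratio was -4.14 ± 0.099 and -4.00 ± 0.17 (exact permutation p = 0.171).

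CDH17 (chr8:95139390-95229531, minus strand, ENSG00000079112) encodes liver-intestine cadherin, an adhesion protein of the lateral membrane. In HT55 it was 1099.9, 1085, 1062 and 1084 CPM with DMSO and 1569, 1650.0, 1575 and 1701 CPM with itraconazole. In SW948 it was 866, 889.7, 865 and 894 CPM with DMSO and 674, 504, 496 and 606 CPM with itraconazole. No treated library overlapped with the DMSO libraries of its line, and the directions were opposite. CDH17 rose by 0.58 ± 0.060 on the log2 scale in HT55 (edgeR adjusted p = 4.02e-05) and in SW948 it fell by 0.66 ± 0.091 (adjusted p = 1.21e-05). It was the gene with the smallest relative spread among the treated HT55 libraries, with a coefficient of variation of 3.90%.

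LGALS4 (chr19:39292311-39303585, minus strand, ENSG00000171747) encodes galectin 4, a lectin that takes part in apical sorting of glycoproteins. Levels in HT55 were 435, 457, 457 and 430.2 CPM with DMSO and 493, 468, 604 and 565 CPM with itraconazole. Levels in SW948 were 563, 527, 534 and 568 CPM with DMSO and 725, 817, 857 and 789.6 CPM with itraconazole. All treated libraries were above the DMSO ones in both lines. In SW948 LGALS4 rose by 0.51 ± 0.069 (log2 scale, edgeR adjusted p = 1.01e-05) and by 0.26 ± 0.085 in HT55 (adjusted p = 0.0256). The HT55 call was lost on plain library totals (0.10, adjusted p = 0.438), without HT55 DMSO replicate 1 (0.26, 0.0576) or 4 (0.25, 0.0600), and without HT55 itraconazole replicate 4 (0.23, 0.0669).

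FABP1 (chr2:88422501-88427581, minus strand, ENSG00000163586) encodes liver fatty acid binding protein, which carries fatty acids in absorptive cells. In HT55 it was 36.9, 36.2, 31.5 and 35.2 CPM with DMSO and 50.4, 47.8, 94.3 and 73.7 CPM with itraconazole. FABP1 rose there by 0.93 ± 0.195 on the log2 scale (edgeR adjusted p = 0.00257), and no treated library was as low as a DMSO one. In SW948 it had 36, 22, 70 and 8 counts with DMSO and 9, 1, 2 and 4 counts with itraconazole, below the filter on low counts. Replicate 4 of SW948 DMSO overlapped with the treated libraries. The SW948 means were 2.91 ± 2.31 and 0.43 ± 0.34 CPM (n = 4, SD), which a two-sided exact permutation test did not separate at the threshold (p = 0.0571). The filter kept FABP1 out of the SW948 fit. In a fit on all 16 libraries FABP1 passed the filter only through its HT55 counts, and its SW948 value was -2.60 ± 0.69 on the log2 scale (edgeR adjusted p = 0.00204). FABP1 also passed the filter when 1 of 5 libraries was left out (SW948 DMSO replicate 4 or any SW948 itraconazole replicate), with values from -3.29 to -2.36 and adjusted p from 0.000122 to 0.00959. The smallest group was smaller there, so the filter asked for fewer libraries. Fits entered in these ways add no support to the SW948 change, which the permutation test did not separate.

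Among the CEACAM genes, CEACAM5 (chr19:42212504-42234353, plus strand, ENSG00000105388) encodes carcinoembryonic antigen, the serum marker of colorectal cancer, anchored to the membrane by a lipid. HT55 libraries held 1329.6, 1301, 1258 and 1325 CPM with DMSO and 2456, 1886, 3846 and 4405 CPM with itraconazole. SW948 libraries held 326, 338, 308 and 339.8 CPM with DMSO and 897, 1303, 1390.5 and 939 CPM with itraconazole. The treated libraries were above the DMSO ones in both lines, with replicates 3 and 4 highest in HT55 and replicates 2 and 3 highest in SW948. CEACAM5 rose by 1.27 ± 0.22 on the log2 scale in HT55 (edgeR adjusted p = 0.000886) and by 1.75 ± 0.13 in SW948 (adjusted p = 1.97e-08). It made up 30.9% of the summed CPM of the 10 genes in HT55 DMSO and 41.4% in HT55 itraconazole, 10.5% in SW948 DMSO and 27.1% in SW948 itraconazole.

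CEACAM6 (chr19:42254885-42276116, plus strand, ENSG00000086548) encodes a shorter lipid-anchored relative. In HT55 it was 133, 133, 132 and 131 CPM with DMSO and 142, 126, 261 and 279 CPM with itraconazole. In SW948 it was 64.6, 57.4, 58.1 and 59.2 CPM with DMSO and 90.6, 196, 261 and 102 CPM with itraconazole. Replicate 1 of HT55 itraconazole was just above the DMSO libraries and replicate 2 just below them, so that the groups overlapped, whereas all SW948 treated libraries were above theirs. The coefficient of variation of the treated libraries was 39.1% in HT55 and 50.0% in SW948, against 0.95% and 5.48% with DMSO. In SW948 CEACAM6 rose by 1.40 ± 0.26 (log2 scale, edgeR adjusted p = 0.000193) and was higher by 0.61 ± 0.23 in HT55 (adjusted p = 0.0418). The HT55 call was lost on plain library totals (0.45, adjusted p = 0.136), in the fit on all 16 libraries (0.61, 0.0610), without any 1 of the 4 HT55 DMSO replicates (0.61 to 0.62, 0.0760 to 0.0805) and without HT55 itraconazole replicate 4 (0.42, 0.140).

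CEACAM1 (chr19:43011456-43065386, minus strand, ENSG00000079385) encodes a family member with a membrane-spanning segment and a signalling tail. In HT55 it was 132, 116, 123 and 127 CPM with DMSO and 332, 326, 361 and 504 CPM with itraconazole. In SW948 it was 138, 130.2, 137 and 133 CPM with DMSO and 317, 252, 252 and 287 CPM with itraconazole. The groups were far apart in both lines, and in SW948 the replicates with the most CEACAM5 and CEACAM6 (2 and 3) had the least CEACAM1. CEACAM1 rose by 1.61 ± 0.13 on the log2 scale in HT55 (edgeR adjusted p = 1.04e-05) and by 1.01 ± 0.077 in SW948 (adjusted p = 3.02e-08). These calls held under every alternative setting run. CEACAM1 shares 185 exon bases with LIPE-AS1 on the opposite strand, which had 81 counts in all libraries together.

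CEACAM7 (chr19:42177231-42210895, minus strand, ENSG00000007306) encodes a lipid-anchored member of mature colonocytes and had few counts in every group. In HT55 it had 16, 17, 13 and 14 counts with DMSO and 39, 35, 89 and 72 counts with itraconazole. In SW948 it had 17, 14, 14 and 29 counts with DMSO and 24, 17, 10 and 26 counts with itraconazole. All HT55 treated libraries were above the DMSO ones, and the SW948 groups overlapped. CEACAM7 rose by 1.998 ± 0.30 on the log2 scale in HT55, from 1.63 ± 0.17 to 6.54 ± 2.51 CPM (edgeR adjusted p = 0.000331). In SW948 its value was 0.48 ± 0.28 (adjusted p = 0.127), and it passed without SW948 DMSO replicate 4 (0.73, adjusted p = 0.0354) or without SW948 itraconazole replicate 3 (0.66, 0.0319).

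**Figure D3:**
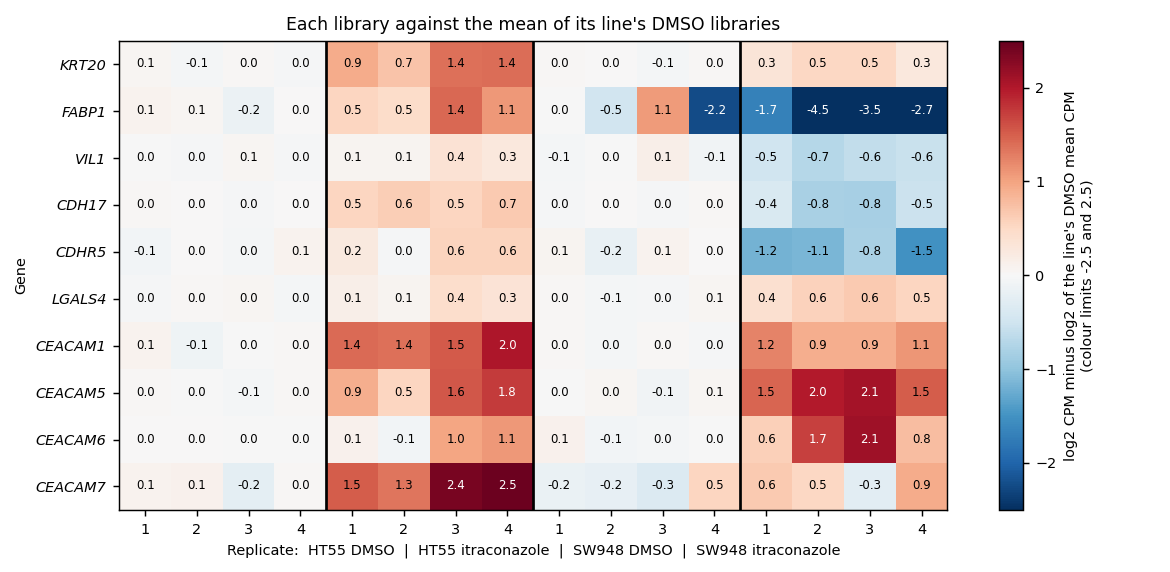
Each library (columns, by replicate within group) against the mean of the DMSO libraries of its line, as the difference in log2 CPM, for the 10 genes (rows). Replicates 3 and 4 of HT55 itraconazole carry the largest increases of CEACAM5, CEACAM6 and CEACAM7, and replicates 2 and 3 of SW948 itraconazole those of CEACAM5 and CEACAM6.

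The balance between CEACAM genes was then compared within each library, where scaling has no part. The ratio of CEACAM6 to CEACAM5 counts was 0.0985 to 0.105 in HT55 DMSO and 0.0578 to 0.0677 in HT55 itraconazole. The log2 ratio of CEACAM6 to CEACAM5 fell by 0.67 in HT55, from -3.30 ± 0.039 to -3.97 ± 0.10 (n = 4, SD, exact two-sided permutation p = 0.0286, adjusted p = 0.0457 over 8 ratios), and the groups did not overlap. In SW948 it was -2.46 ± 0.10 and -2.91 ± 0.42 (exact permutation p = 0.0857, adjusted 0.114), with the treated libraries from -3.31 to -2.41. The log2 ratio of CEACAM1 to CEACAM5 fell by 0.73 in SW948, from -1.29 ± 0.098 to -2.01 ± 0.48 (exact permutation p = 0.0286, adjusted p = 0.0457). In HT55 that ratio was -3.39 ± 0.072 and -2.99 ± 0.37 (exact permutation p = 0.114). Thus CEACAM5 rose more than CEACAM6 in HT55 and more than CEACAM1 in SW948. The share of counted lines with more than 1 alignment was 26.6 ± 0.37% in HT55 DMSO, 26.0 ± 1.85% in HT55 itraconazole, 22.8 ± 0.73% in SW948 DMSO and 26.0 ± 0.45% in SW948 itraconazole, and its part in these ratios was not tested. Within HT55 itraconazole the share was 27.3%, 27.9%, 24.1% and 24.8% in replicates 1 to 4, lowest in the pair with the most CEACAM5, CEACAM6 and CEACAM7.

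**Figure D4:**
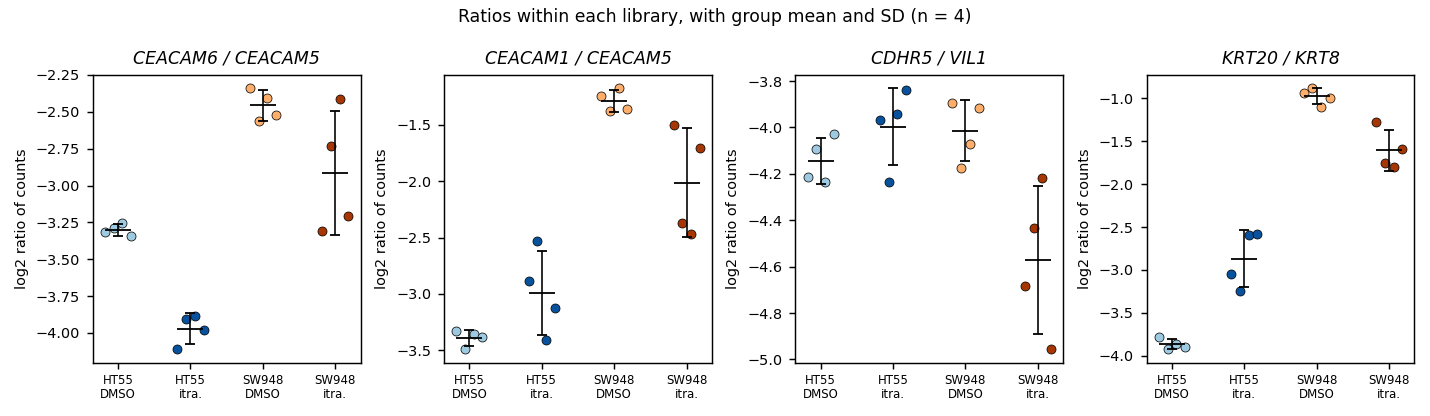
The log2 ratio of counts of 2 genes in the same library (vertical axes) for the 4 groups, with the group mean and SD (n = 4). CEACAM6 to CEACAM5 separates the HT55 groups, CEACAM1 to CEACAM5 and CDHR5 to VIL1 separate the SW948 groups, and KRT20 to KRT8 goes up in HT55 and down in SW948.

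Whether the 2 lines responded differently was tested as the interaction of line and treatment over all 16 libraries, as the SW948 change minus the HT55 change. The difference passed for 8 of the 10 genes, with 1 higher and 7 lower in SW948, where 24.8% of 13249 genes tested were called higher and 29.1% lower. All 6 absorptive markers differed. FABP1 passed the filter in this fit only through its HT55 counts. FABP1 had the largest difference, at -3.54 ± 0.72 on the log2 scale (edgeR adjusted p = 0.000396), but rests on 16 counts over the SW948 itraconazole libraries. It was -2.90 without SW948 DMSO replicate 3 and -4.21 without SW948 itraconazole replicate 1, the extremes when 1 library was left out. CDHR5 followed at -1.50 ± 0.18 (adjusted p = 1.79e-06), CDH17 at -1.21 ± 0.12 (adjusted p = 1.21e-07), VIL1 at -0.79 ± 0.11 (adjusted p = 6.45e-06) and KRT20 at -0.73 ± 0.16 (adjusted p = 0.000846). LGALS4, at 0.28 ± 0.11 (adjusted p = 0.0379), was the 1 gene higher in SW948. That call was lost in 11 of the 16 fits that left out 1 library (values from 0.22 to 0.29 in those, adjusted p from 0.0504 to 0.0953), with no filter (0.0703) and on plain library totals (0.08, 0.595). It was also lost with the replicate number as a block (0.29, adjusted p = 0.0533).

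Of the CEACAM genes, CEACAM1 and CEACAM7 had smaller changes in SW948 than in HT55, with differences of -0.57 ± 0.16 (edgeR adjusted p = 0.00484) and -1.49 ± 0.44 (adjusted p = 0.00757). For CEACAM5 and CEACAM6 the difference was 0.51 ± 0.27 (adjusted p = 0.113) and 0.83 ± 0.38 (adjusted p = 0.0743) and did not pass. CEACAM5 passed without HT55 itraconazole replicate 4 (0.71, adjusted p = 0.0225). CEACAM6 passed without HT55 itraconazole replicate 3 (0.96, adjusted p = 0.0340) or 4 (1.01, 0.0365) and without SW948 itraconazole replicate 1 (1.03, 0.0186) or 4 (0.99, 0.0328). Both passed with no filter on low counts (adjusted p = 0.000115 and 5.19e-10). A p above the threshold does not show that the lines responded alike.

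The lines already differed with DMSO. SW948 DMSO was above HT55 DMSO for 2 genes and below it for 6, where 38.2% of genes tested were called higher and 37.7% lower. The groups did not overlap for 8 of the 10 genes, as for 78% of all genes tested. KRT20 was higher in SW948, with a log2 difference of 1.84 ± 0.12 (edgeR adjusted p = 3.00e-11) and LGALS4 by 0.30 ± 0.078 (adjusted p = 0.00169). FABP1 was lower by 3.60 (log2 fold change -3.60 ± 0.33, adjusted p = 7.25e-09), CEACAM5 stood at -1.99 ± 0.20 (1.80e-08) and CEACAM6 at -1.14 ± 0.27 (0.000888). FABP1 passed the filter only through its HT55 counts, with 8 to 70 counts in an SW948 DMSO library. VIL1 at -0.84 ± 0.077 (6.15e-09), CDHR5 at -0.70 ± 0.12 (3.67e-05) and CDH17 at -0.30 ± 0.082 (0.00265) were also lower, the last not on plain library totals (-0.10, 0.315). CEACAM1 at 0.11 ± 0.11 (0.380) and CEACAM7 at -0.07 ± 0.34 (0.853) did not pass, although CEACAM1 did on plain totals (0.31, 0.0317).

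With itraconazole, 2 genes were higher and 7 lower in SW948 than in HT55, where 39.3% of genes tested were called higher and 41.5% lower. The groups did not overlap for 9 of the 10 genes, against 69.7% of all genes tested. KRT20 at 1.11 ± 0.12 on the log2 scale (edgeR adjusted p = 3.17e-08) and LGALS4 at 0.58 ± 0.078 (1.05e-06) were the higher ones. FABP1 at -7.13 ± 0.46 (2.40e-11), CDHR5 at -2.21 ± 0.14 (1.25e-11), VIL1 at -1.63 ± 0.079 (2.91e-13) and CDH17 at -1.51 ± 0.084 (2.67e-12) were lower by more than a log2 unit. FABP1 passed the filter only through its HT55 counts and had 1 to 9 counts in an SW948 itraconazole library. The size of its difference is therefore poorly determined. CEACAM7 at -1.56 ± 0.28 (3.60e-05), CEACAM5 at -1.48 ± 0.19 (7.43e-07) and CEACAM1 at -0.46 ± 0.11 (0.000807) were lower too. CEACAM6 at -0.32 ± 0.27 (0.275) did not pass, except without SW948 itraconazole replicate 3 (-0.64, 0.0242) and with no filter (-0.32, 0.000631). These 4 group comparisons share libraries and are not independent of each other.

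Genes that build the brush border were set beside VIL1 and CDHR5. Of 17 such genes in the files, 16 were tested in HT55, where 8 were higher and 1 lower, and 15 in SW948, where 8 were higher and 3 lower. Their median log2 fold change was 0.18 in HT55 and 0.26 in SW948. These counts, and those of the lists that follow, stand beside 27.5% higher and 26.5% lower of all genes tested in HT55 and 38.9% higher and 41.3% lower in SW948, and nothing is called particular to a list from them. In HT55 the scaffold PDZK1 rose by 1.93 ± 0.41 (edgeR adjusted p = 0.00271), CDHR2, the partner of CDHR5 in tip links, by 1.27 ± 0.096 (adjusted p = 7.62e-06), and MYO7B, the myosin of the tip complex, by 0.75 ± 0.19 (adjusted p = 0.00677). PDZK1 was low there, at 2.25 ± 0.49 CPM with DMSO and 8.66 ± 4.67 CPM with itraconazole. In SW948 MYO7B rose by 1.34 ± 0.060 (adjusted p = 2.27e-10) and EZR, the membrane linker ezrin, by 1.09 ± 0.093 (adjusted p = 9.70e-08), while MYO1A, a brush border myosin, went from 64.2 ± 5.93 to 5.62 ± 1.52 CPM (log2 fold change -3.52 ± 0.14, adjusted p = 8.08e-11). So VIL1 and CDHR5 fell in SW948 beside MYO1A, while most called genes of this list rose.

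Among 26 products of absorptive colonocytes in the files, 14 were tested in HT55, with 7 higher and 1 lower and a median of 0.45. In SW948 15 were tested, with 9 higher and 4 lower and a median of 0.61. SLC26A3, the chloride and bicarbonate exchanger of the colon surface, rose in HT55 from 548 ± 45.4 to 7427 ± 897 CPM (log2 fold change 3.76 ± 0.11, edgeR adjusted p = 3.87e-08). TRPM6, a magnesium channel, and SLC9A3, a sodium and proton exchanger, rose there by 2.30 ± 0.68 and 1.57 ± 0.17 (adjusted p = 0.0148 and 4.86e-05). Both were low, TRPM6 going from 1.21 ± 0.53 to 5.86 ± 5.11 CPM and SLC9A3 from 3.37 ± 0.30 to 10.1 ± 1.88 CPM. The treated libraries of HT55 thus spread widely for TRPM6. In SW948 FABP2, the intestinal relative of FABP1, went from 6.52 ± 0.14 to 0.50 ± 0.22 CPM (-3.65 ± 0.23, adjusted p = 5.81e-09). ALPI, intestinal alkaline phosphatase, rose there by 2.12 ± 0.22 (adjusted p = 6.02e-07), and the sulfate transporter SLC26A2 was lower at -1.77 ± 0.17 (adjusted p = 3.64e-07). ALPI was low, going from 1.26 ± 0.19 to 5.67 ± 1.27 CPM.

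Of 7 further CEACAM genes in the files, 2 were tested in HT55 and 1 in SW948. CEACAM8, a granulocyte antigen of the same cluster, had 8, 7, 5 and 4 counts in HT55 DMSO and 23, 20, 304 and 205 counts in HT55 itraconazole. All treated libraries were above the DMSO ones, and replicates 3 and 4, which also held the most CEACAM5, CEACAM6 and CEACAM7, were far above the other two. Its log2 fold change in HT55 was 4.49 ± 0.94 (edgeR adjusted p = 0.00256). With up to 2 mismatches, CEACAM8 held a match for 8.35% of CEACAM5 windows, 4.99% of CEACAM6 windows and 2.34% of CEACAM1 windows. The windows of CEACAM8 itself were not searched, and a part of reads from its relatives in its counts was not tested. In SW948 CEACAM8 had 3 to 13 counts in a DMSO library and 4 to 7 in a treated one. CEACAM19 was lower in HT55 (-1.12 ± 0.22, adjusted p = 0.00162), and the 1 gene tested in SW948 did not pass. CEACAM4 and CEACAM16 had no count in any library.

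The other galectins mostly rose, with 4 of 4 tested called higher in HT55 and 3 higher and 1 lower of 4 in SW948. LGALS3, an epithelial galectin, rose from 692 ± 12.0 to 1441 ± 262 CPM in HT55 (1.05 ± 0.12, edgeR adjusted p = 6.10e-05) and from 216 ± 13.9 to 329 ± 35.1 CPM in SW948 (0.57 ± 0.082, adjusted p = 1.77e-05). LGALS9 and LGALS1 rose by 1.02 ± 0.27 and 0.94 ± 0.27 in HT55 and by 1.70 ± 0.20 and 1.21 ± 0.27 in SW948. The median log2 fold change of this list was 0.98 in HT55 and 0.89 in SW948.

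Of 10 transcription factors of intestinal differentiation, 4 were called higher and 0 lower in HT55, and 3 were higher and 6 lower in SW948, the higher count there being near the 38.9% of all genes. In HT55 ELF3, an epithelial ETS factor, rose by 0.77 ± 0.064 (edgeR adjusted p = 1.17e-05), KLF4 by 0.44 ± 0.066 (adjusted p = 0.000340) and CDX2, the intestinal homeobox factor, by 0.43 ± 0.070 (adjusted p = 0.000571). In SW948 CDX2 went from 203 ± 16.2 to 112 ± 36.7 CPM (-0.88 ± 0.16, adjusted p = 0.000166). HNF4G, a nuclear receptor active in enterocytes, was also lower there (-1.01 ± 0.14, adjusted p = 9.31e-06). The median was 0.13 in HT55 and -0.38 in SW948.

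Markers of other crypt cells moved as well. Of the stem cell genes, 4 of 5 tested were lower in HT55 and 6 of 6 in SW948, with medians of -0.67 and -0.55. LGR5, the receptor that marks crypt stem cells, went from 26.6 ± 2.21 to 7.60 ± 2.68 CPM in HT55 (-1.79 ± 0.20, edgeR adjusted p = 5.79e-05) and from 19.3 ± 0.38 to 2.98 ± 0.76 CPM in SW948 (-2.70 ± 0.15, adjusted p = 1.23e-09). ASCL2, EPHB2, OLFM4 and PROM1 were the other named ones, with values of -0.67 ± 0.19 and -0.34 ± 0.11 in HT55 for the first pair and -1.10 ± 0.20 and -0.57 ± 0.12 in SW948 for the second. Of the goblet cell genes, both tested in HT55 were lower, and 2 of 3 in SW948. AGR2, a secretory disulfide isomerase, went from 474 ± 66.8 to 32.1 ± 4.27 CPM in SW948 (-3.92 ± 0.12, adjusted p = 2.07e-11) and from 30.3 ± 0.61 to 9.30 ± 2.79 CPM in HT55 (-1.71 ± 0.17, adjusted p = 3.26e-05). TFF3, a trefoil peptide, was lower in both (-1.42 ± 0.14 and -2.94 ± 0.18, adjusted p = 3.00e-05 and 3.87e-09), while MUC2, the main gel-forming mucin, rose in SW948 (0.68 ± 0.10, adjusted p = 3.11e-05). Of 6 enteroendocrine genes, 0 were tested in HT55 and 1 in SW948, and their summed level did not exceed 1.91 CPM. CHGB, a granin and the gene tested, was lower, at 1.29 CPM with DMSO and 0.32 CPM with itraconazole. PYY, peptide YY, went the other way in SW948 without being tested, from 1 count in all DMSO libraries to 5 to 12 counts in each treated one. CHGB and PYY were named after their values were seen.

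The genes whose 4 group means lay nearest to those of each member were found among 9093 protein-coding genes whose mean log2 CPM reached 3, by the root mean square difference of centred log2 group means over the 4 groups. The nearest pair was ABCC5 and SEMA3B for KRT20 (0.063 and 0.096), VAV3 and PHGR1 for FABP1 (0.31 and 0.43), ARID1B and NR1H2 for VIL1 (0.012 and 0.017), FAM219B and ZBTB44 for CDH17 (0.064 and 0.081) and WDR81 and AGMAT for CDHR5 (0.071 and 0.075). For LGALS4 it was RSBN1L and NUP58 (0.018 and 0.024), for CEACAM1 PRRG1 and CNNM2 (0.077 and 0.098), for CEACAM5 PAQR7 and S100A4 (0.18 and 0.21), for CEACAM6 AP2A1 and NDUFA1 (0.015 and 0.036) and for CEACAM7 PKIB and MUC20 (0.12 and 0.14). With only 4 group means and 9093 candidates, a close match is easily found for most genes. The pairs therefore describe likeness of the group means only, and for FABP1 the SW948 means rest on few counts.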

How the data were processed

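RNA was extracted with a column kit, TruSeq libraries were sequenced as single-end 50-base reads and aligned to hg19 by the authors. The submitters' processing notes name TopHat, HTSeq and DESeq without versions. Each of the 16 deposited files holds raw counts of reads per gene for 1 library, not normalised by the authors, with 5 totals of reads outside genes (28.2% to 32.9% of lines), which were left out of library sizes. A symbol was found for 39260 of 54127 identifiers, and 27946 had no count. Reads carried no molecular identifiers, so counts are not independent molecules.

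Counts were tested with the quasi-likelihood test of edgeR 4.0.16 (R 4.3.3, TMM scaling, filterByExpr), on 8 libraries within a line and on 16 for the interaction and the comparisons of lines. P-values were adjusted by the Benjamini-Hochberg method over all genes tested, with a threshold of 0.05, and SE is the log2 fold change divided by the root of F. The script was tested on counts simulated independently for each gene. Such counts hold no differences shared by many genes between libraries, as were seen among the treated HT55 libraries. Ratios within libraries, and FABP1 in SW948, were compared by two-sided exact permutation over 70 assignments, with SciPy 1.17.1. Exon lengths, positions and overlaps came from GENCODE release 44 mapped to GRCh37. Windows of 50 bases within exons were searched against the GRCh37 genome on both strands, so windows across splice junctions were not examined.

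All 10 genes were described. Of each further list, up to 3 called genes per line with the largest absolute log2 fold change and a mean log2 CPM of at least 1 were named, CEACAM8 per library, CEACAM4, CEACAM16 and the marker genes at or near 0 being named after their values were seen. The result of 1 gene that this rule would name is not reported here. The genes, lists and tests were chosen with earlier results of these data known. Alternatives were DESeq2 1.42.0 size factors and its Wald test, plain library totals, no filter, a minimum of 10 counts in each library, a threshold of 0.01, a block by replicate number, 1 fit on 16 libraries, leaving out each library, 0.5 added to counts in ratios, and lengths of the longest transcript.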

Additional observations from a re-analysis of the deposited data

Results flagged for a closer look

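The change with itraconazole differed between the lines for 8 of the 10 genes in the interaction test of edgeR, given as the SW948 change minus the HT55 change on the log2 scale. Of all 13249 genes in that test, 24.8% were called higher and 29.1% lower in SW948, so such a difference was common. The values were -3.54 for FABP1, -1.50 for CDHR5, -1.49 for CEACAM7, -1.21 for CDH17, -0.79 for VIL1, -0.73 for KRT20, -0.57 for CEACAM1 and 0.28 for LGALS4. CDH17 passed the test within each line in opposite directions. CDHR5 did so too, but its HT55 call (adjusted p = 0.0326) was lost on plain library totals (0.266) and in 4 of 8 fits that left out 1 library, namely HT55 DMSO replicate 1 (0.0738), 2 (0.0600) or 3 (0.0705) or HT55 itraconazole replicate 4 (0.0977). The LGALS4 difference lost its call in 11 of 16 such fits and with the replicate block (0.0533).

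Of 72 groups of 4 libraries examined for a single library far from the other three, 2 were picked out, where chance gives about 1 in 20. CEACAM7 in SW948 DMSO was one, where replicate 4, at 2.23 CPM, was separated from the next library by a share of 0.854 of the range of the group. The other was the share of counted lines with more than 1 alignment in SW948 itraconazole, where replicate 1, at 25.3%, was apart by a share of 0.91 of the range.

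The share of lines with more than 1 alignment, which no comparison used, was higher in every SW948 itraconazole library (mean 25.98%) than in every SW948 DMSO library (22.8 ± 0.73%). These lines include reads that would fall on repeated stretches such as those of the CEACAM genes, and their part in the CEACAM levels was not tested.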

How the results depend on the processing

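Numbers of genes called moved by less than 1.5 times under every alternative, and the number of the 10 genes called was 6 to 10 in HT55, 7 to 10 in SW948 and 7 to 10 for the interaction over all settings. Leaving out 1 library gave 5560 to 7911 genes called in HT55, 9686 to 10294 in SW948, 6762 to 7450 for the interaction, 9778 to 10507 between lines with DMSO and 10528 to 10837 with itraconazole. Plain library totals shifted the median log2 fold change of all genes by 0.17 in HT55 and 0.33 in SW948. On them 2279 genes were higher and 4710 lower in HT55 against 3340 and 3213 with TMM, 3145 and 6832 in SW948 against 4865 and 5165, 2295 and 4929 for the interaction against 3292 and 3849, and 6134 and 3918 between lines with DMSO against 5059 and 4996. Then 6 of the 10 genes were called in HT55, not 9. The value of CEACAM7 between the lines with DMSO, not called, turned to 0.12 on plain totals and ranged from -0.319 to 0.026 when 1 library was left out, above 0 only without SW948 DMSO replicate 3. Per length, 32 of 40 ranks were kept with the longest transcript, and 21 of 40 levels moved by over 1 SD. The lost ranks were LGALS4 over KRT20 for the first place in both SW948 groups, LGALS4 over CDH17 in HT55 DMSO and CEACAM1 over CEACAM6 in SW948 itraconazole.

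The labels number the replicates alike in all groups. Deviations from the group means of treated and DMSO libraries of 1 number were barely correlated (r from -0.05 to 0.14 in HT55 and 0.002 to 0.13 in SW948), not every library correlated best with its own number, and they share only a number. With the replicate block 6300 genes were called in HT55, 9973 in SW948, 7037 for the interaction, 10075 with DMSO and 10728 with itraconazole between lines, and among the 10 genes only LGALS4 in the interaction lost its call. In the paired ratios the smallest p a sign flip of 4 pairs allows is 0.125, so none can pass: the values stayed -0.67 for CEACAM6 to CEACAM5 in HT55, -0.73 for CEACAM1 to CEACAM5, -0.56 for CDHR5 to VIL1 and -0.63 for KRT20 to KRT8 in SW948, and 0.999 for KRT20 to KRT8 in HT55 (adjusted p = 0.167 each). Leaving out 1 library, the ratio changes ran from 0.90 to 1.13 and -0.74 to -0.56 (KRT20 to KRT8 in HT55 and SW948), -0.70 to -0.62 and -0.63 to -0.33 (CEACAM6 to CEACAM5), 0.25 to 0.54 and -0.90 to -0.57 (CEACAM1 to CEACAM5), and 0.10 to 0.23 and -0.68 to -0.43 (CDHR5 to VIL1). CEACAM7, with 10 to 89 counts in a library, and FABP1 in SW948 are limited by depth.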
